A study of Rattus norvegicus with 12 samples.

Results

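Globin genes encode the protein chains of haemoglobin, and 6 of the 17337 genes counted in rat whole blood were followed here as alpha and beta globins. They were taken by symbol: the beta genes Hbb, Hbb-b1, LOC689064 and LOC100134871, and the alpha genes Hba1 and LOC287167. All 6 passed the filter on low counts that kept 2781 genes for testing. In a RefSeq gene table of the assembly GRCr8, LOC689064 is named Hbb-bs, LOC100134871 is named Hbbl1 and LOC287167 is named Hba-a3. That table places the beta genes on chromosome 1 and LOC287167 on chromosome 10. Hba1 is an older name of 2 alpha genes there, so it could not be tied to a single locus.

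The series holds 12 blood RNA libraries from adult male rats of the inbred strains Wistar Kyoto (WKY) and Fischer 344 (F344), with 3 libraries in each of 4 groups. The groups were WKY after chronic restraint stress (CRS), WKY with no stress (NS), F344 after CRS and F344 with NS. The rats were 70 to 90 days old, and every rat, NS rats included, went through contextual fear conditioning before and after the restraint period, with 4 weeks in the home cage after the first test. Restraint lasted 2 hours a day for 2 weeks in a breathable bag, while NS rats stayed undisturbed in the home cage, and blood was taken into RNA-stabilising PAXgene tubes at decapitation 24 hours after the last test. Nothing in the labels ties each library to its own animal, and the tests therefore speak of variation among libraries, which may be technical. The series asks how the 2 strains differ in blood transcripts after restraint.

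An adult haemoglobin molecule joins alpha chains and beta chains, each holding a heme group, and red cell precursors make both chains in near balance. Mature red cells of mammals have no nucleus, but young ones released into blood, the reticulocytes, still carry globin mRNA, which makes globin transcripts prominent in whole blood RNA. Rodents carry several tandem copies of both genes that differ at few bases. Beta globin genes are switched on by GATA1, by KLF1 at CACCC boxes and by a distant locus control region.

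The sequence just upstream of each member is shown because Hbb-b1, LOC689064 and LOC100134871 are told apart in the counts while the bases before them differ at few positions. The 250 bases before the annotated start are printed 5′ to 3′ from RefSeq (GRCr8) for the 5 members with a single match. Capitals mark 4 kinds of word, searched on both strands. The word TATAAA and the close variant ATAAAA were counted as TATA-like. The box named CCAAT was searched as written, and so was the box named CACCC. GATA words were AGATAA together with the variant AGATAG, and TGATAA together with the variant TGATAG.
Hbb, chr1:167663722-167663971, minus strand: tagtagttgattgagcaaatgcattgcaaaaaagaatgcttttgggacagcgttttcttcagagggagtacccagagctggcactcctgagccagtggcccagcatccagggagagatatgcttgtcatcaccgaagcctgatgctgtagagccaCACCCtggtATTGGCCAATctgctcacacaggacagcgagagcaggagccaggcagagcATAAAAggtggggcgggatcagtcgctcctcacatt
Hbb-b1, chr1:167643521-167643770, minus strand: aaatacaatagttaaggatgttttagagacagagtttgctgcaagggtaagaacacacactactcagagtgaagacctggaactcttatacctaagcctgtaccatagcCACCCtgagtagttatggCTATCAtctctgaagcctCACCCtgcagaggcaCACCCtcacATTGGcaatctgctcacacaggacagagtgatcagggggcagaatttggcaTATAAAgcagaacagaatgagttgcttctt
LOC689064 (Hbb-bs), chr1:167631631-167631880, minus strand: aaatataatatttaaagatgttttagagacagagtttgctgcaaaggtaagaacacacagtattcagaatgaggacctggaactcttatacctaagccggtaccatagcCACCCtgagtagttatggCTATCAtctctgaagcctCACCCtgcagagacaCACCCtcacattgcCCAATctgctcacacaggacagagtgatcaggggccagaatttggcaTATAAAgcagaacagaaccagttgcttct
LOC100134871 (Hbbl1), chr1:167650236-167650485, minus strand: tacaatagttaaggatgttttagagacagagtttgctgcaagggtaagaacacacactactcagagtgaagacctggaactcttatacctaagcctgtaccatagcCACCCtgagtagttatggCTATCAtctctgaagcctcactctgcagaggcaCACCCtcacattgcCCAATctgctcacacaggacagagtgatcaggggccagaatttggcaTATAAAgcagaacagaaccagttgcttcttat
LOC287167 (Hba-a3), chr10:15816944-15817193, minus strand: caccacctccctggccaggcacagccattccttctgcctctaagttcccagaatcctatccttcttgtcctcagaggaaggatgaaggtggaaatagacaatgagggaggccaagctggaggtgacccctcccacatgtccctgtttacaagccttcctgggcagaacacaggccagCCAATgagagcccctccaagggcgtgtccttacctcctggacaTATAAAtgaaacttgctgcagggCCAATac

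Hbb-b1 and LOC100134871 were identical at 95.7% of aligned upstream positions, Hbb-b1 and LOC689064 at 93.6%, and LOC689064 and LOC100134871 at 93.3%. Hbb matched these 3 copies at 61.8% to 62.8%, and LOC287167 matched the 4 beta genes at 45.9% to 48.0%. All 5 windows held a TATA-like word and a CCAAT word, on 1 strand or the other. The TATA-like word began 36 bases before the start in Hbb, where it read ATAAAA, and 29 to 32 bases before it in the others. In Hbb a reverse and a forward CCAAT word lay side by side without overlap. CACCC occurred in the 4 beta windows, once in Hbb, 2 times in LOC100134871 and 3 times in Hbb-b1 and in LOC689064, and had no match in the LOC287167 window. A GATA word, TGATAG on the reverse strand, occurred in Hbb-b1, LOC689064 and LOC100134871. Among 33469 windows of the same length, 24.3% held a TATA-like word, 34.0% CCAAT, 49.2% CACCC and 27.0% a GATA word. These are matches of letters, not measured binding.

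Genes received 1691956 to 3846263 counts per library, of which 88.9% to 94.6% fell on only 3 features, named LOC257642, LOC310926 and Rn5-8s. Globin took 35559 to 200311 counts per library, which was 35.1% to 51.3% of what remained outside those 3 features. Reads recorded as ambiguous between features made up 78.3% to 83.6% of all counted reads. Globin copies share sequence, so reads that match several copies may be among them, and every level of a single copy is uncertain for this reason. Levels are given as CPM, counts scaled to a common library size by the TMM method. F344 NS replicates 2 and 3 had the fewest counts outside those 3 features among the F344 libraries, at 195564 and 90796, and low TMM factors of 0.626 and 0.519. WKY NS replicate 3 had 170507 such counts, fewer than F344 NS replicate 2, with a TMM factor of 0.949. The Hbb-b1 and Rhd calls and the gene list medians that moved without the 2 F344 libraries are also given without them.

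Among the marker sums, that of red cells was the highest. Of 24 red cell genes listed, 19 were in the files and none of these was at 0 in all libraries; their summed level was 581 to 1407 CPM per library. Marker sums ran from 13.8 to 33.4 CPM for T cells, 6.09 to 13.5 CPM for B cells, 21.7 to 58.0 CPM for neutrophils and 11.2 to 47.1 CPM for platelets. Monocyte markers summed to 51.8 to 158 CPM. Brain and muscle markers, which blood drawn at decapitation could carry, summed to 5.81 to 15.3 CPM. The B cell sums lie within that range, so they do not stand out from possible carry-over. The lowest T cell and platelet sums, 13.8 and 11.2 CPM, lie within it too.

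Nearly all globin counts came from beta genes. Hbb, the major adult beta chain gene, held 80.6% of all globin counts over the 12 libraries, LOC100134871 9.08%, LOC689064 6.61% and Hbb-b1 2.93%. The alpha genes LOC287167 and Hba1 held 0.769% and 0.0189%. These shares are of reads and were not divided by transcript length. Per 100 beta counts there were 0.455 to 1.28 alpha counts in the 6 WKY libraries and 0.616 to 1.15 in the 6 F344 libraries, so alpha counts were scarce in every library of both strains. How many alpha reads lie among the ambiguous ones was not tested. In bulk blood, fewer cells of a type and less RNA per cell cannot be told apart, which holds for every level below.

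Hbb-b1, a beta globin copy, was the member that separated the strains. In WKY after CRS it had 448, 569 and 524 CPM, and in F344 after CRS it had 1374, 2282 and 1892 CPM. In WKY with NS it had 733, 456 and 329 CPM, and in F344 with NS it had 966, 1722 and 1598 CPM. Every WKY library lay below every F344 library of the same treatment, as 9.92% of the tested genes did after CRS and 6.33% with NS.

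After CRS, Hbb-b1 was lower in WKY by 3.60-fold (log2 -1.85, SE 0.34, edgeR adjusted p = 0.0012), at 513 ± 61.0 CPM in WKY and 1849 ± 455 CPM in F344 (SD, n = 3 each). It was 1 of 18 genes lower in WKY there, 0.647% of the 2781 tested. With NS it was lower in WKY by 2.82-fold (log2 -1.50, SE 0.34, edgeR adjusted p = 0.0205), at 506 ± 207 CPM in WKY and 1429 ± 405 CPM in F344. It was 1 of 10 genes lower in WKY with NS, 0.36% of those tested, where 0.683% were called in either direction. Averaged over both treatments the difference was 3.19-fold (log2 -1.67, SE 0.24, edgeR adjusted p = 1.31e-05), where 1.62% of genes were called lower, 2.12% higher and 3.74% in either direction. The 2 pairwise strain comparisons share no library, while each shares a group with each restraint comparison. Summed markers of T cells were also lower in WKY, at 13.8 to 20.4 CPM in WKY and 22.2 to 33.4 CPM in F344. With NS the means of Cd3e, Cd3g and Cd247 were lower in WKY. Lck went the other way, at 7.42 CPM in WKY and 7.20 CPM in F344, and so did Cd3d, at 0.848 and 0.735 CPM. After CRS all of these genes had lower means in WKY. Of 4 T cell genes tested, 0 were called in either pairwise strain comparison. Summed markers of monocytes were higher in WKY, at 109 to 158 CPM in WKY and 51.8 to 79.5 CPM in F344. Neither sum has a background over all genes. Most of the monocyte sum was Lyz2, with means of 119 CPM in WKY and 61.3 CPM in F344 after CRS. In the same order after CRS, Cybb had 6.25 and 1.74 CPM, Csf1r 12.4 and 12.0 CPM and Cd14 0.485 and 0.678 CPM. With NS, Csf1r had 13.9 and 6.41 CPM and Cd14 0.901 and 0.663 CPM. Red cell marker sums overlapped, at 818 to 1407 CPM in WKY and 581 to 1287 CPM in F344. Their part in the Hbb-b1 difference was not tested.

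The call after CRS held in each of the 12 leave-outs. The call with NS was lost without F344 NS replicate 2 (log2 -1.30, edgeR adjusted p = 0.139), F344 NS replicate 3 (log2 -1.39, adjusted p = 0.124), WKY NS replicate 2 (log2 -1.39, adjusted p = 0.179) or WKY NS replicate 3 (log2 -1.23, adjusted p = 0.162), and without both shallow F344 libraries (log2 -0.88, adjusted p = 0.795), where 1 F344 NS library remained and was assumed to vary like the other groups.

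**Figure D1:**
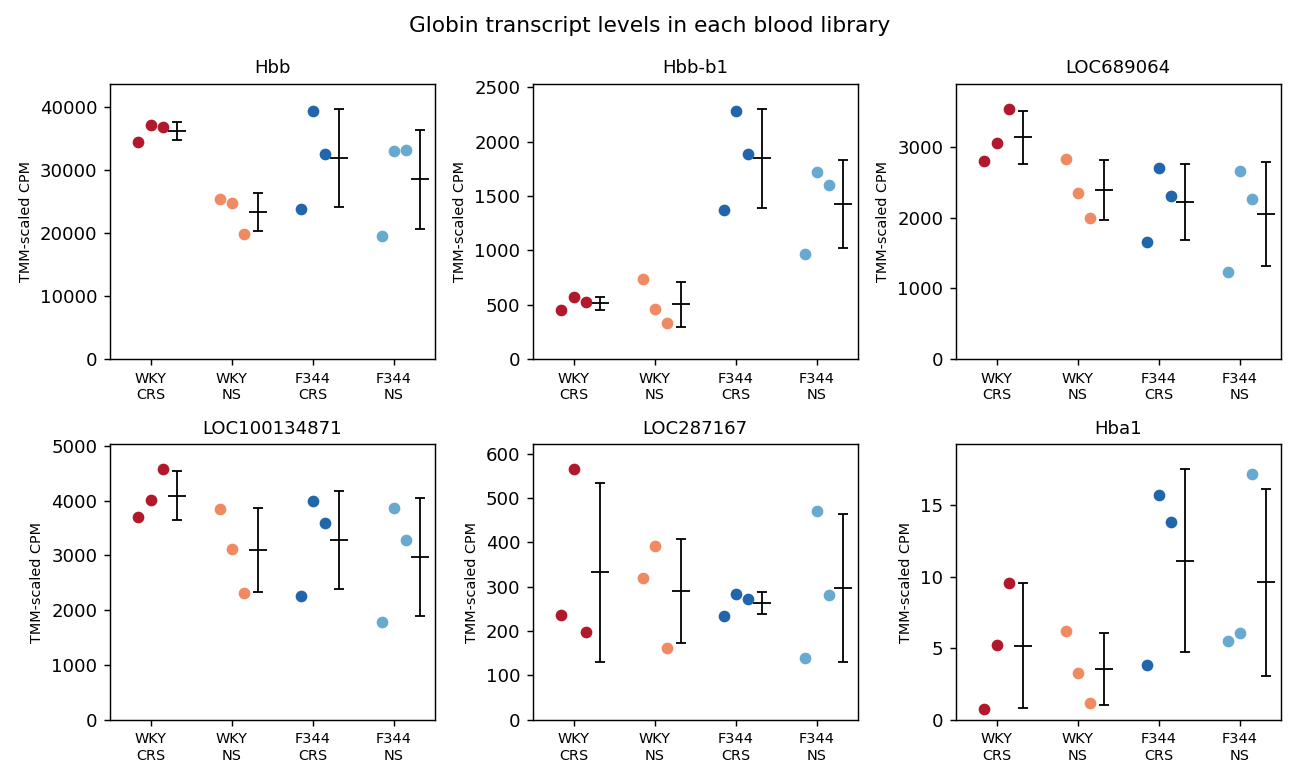
TMM-scaled CPM of the 6 globin genes on linear axes that differ by gene; dots are libraries, with 3 in each of WKY CRS, WKY NS, F344 CRS and F344 NS from left to right, and bars are the mean ± SD. Hbb-b1 lies at 329 to 733 CPM in WKY and 966 to 2282 CPM in F344, while the ranges of the other 5 genes overlap between strains over both treatments.

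The same separation showed within each library, where scaling plays no part. Per 100 Hbb counts, Hbb-b1 had 1.30, 1.53 and 1.42 counts in WKY after CRS and 5.74, 5.78 and 5.81 in F344 after CRS. With NS it had 2.89, 1.84 and 1.66 counts in WKY and 4.96, 5.21 and 4.81 in F344. The ranges of the strains did not overlap, and the mean ratio was 1.77 ± 0.579 in WKY and 5.38 ± 0.449 in F344 (SD, n = 6 each). What share of all genes would separate as a ratio to Hbb was not computed. Behind these ratios stood 849 to 9322 Hbb-b1 counts per library.

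The other copies had a higher mean ratio in WKY. LOC689064 had 8.14 to 11.2 counts per 100 Hbb counts in WKY and 6.29 to 8.04 in F344. These ranges did not overlap but nearly met, and no share over all genes was computed for comparison. On the CPM scale LOC689064 did not pass in either pairwise strain comparison. LOC100134871 had 10.7 to 15.2 in WKY and 9.14 to 11.7 in F344, which overlapped. Summed, the 3 copies with near-identical upstream sequence had 23.4 ± 3.26 counts per 100 Hbb counts in WKY and 22.6 ± 1.64 in F344, with ranges of 20.2 to 29.3 and 20.4 to 24.9. The sums overlapped in full, while the part of them assigned to Hbb-b1 was 6.06% to 9.88% in WKY and 20.9% to 26.0% in F344. How reads were divided among these copies was not tested, and transcription of Hbb-b1 and assignment of its reads cannot be told apart in these counts.

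**Figure D2:**
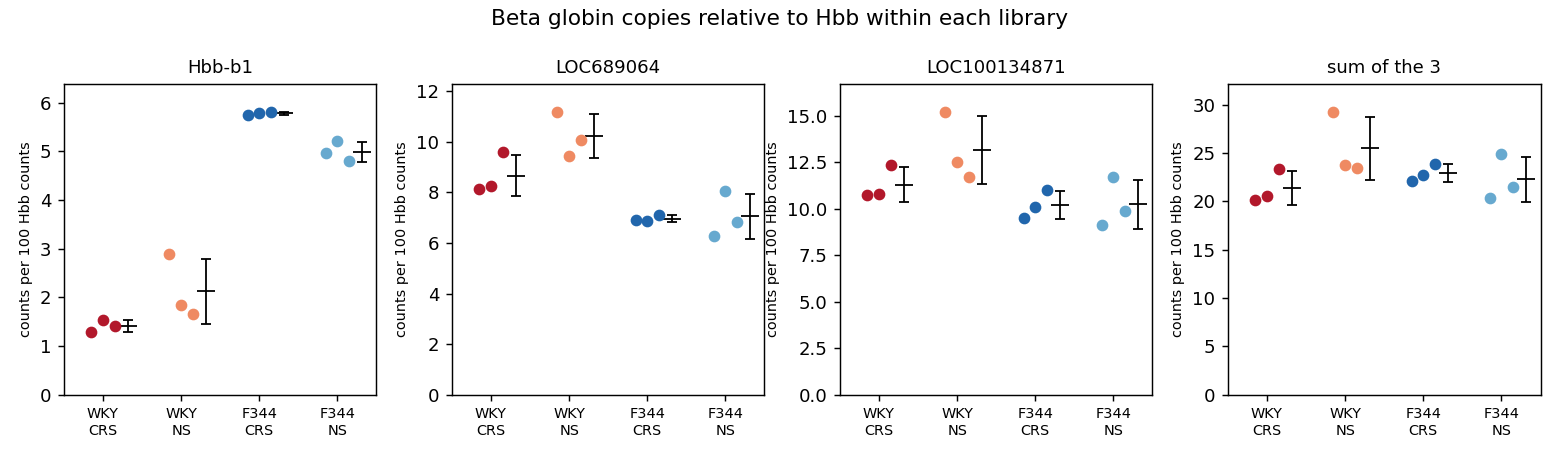
Counts of Hbb-b1, LOC689064, LOC100134871 and their sum per 100 Hbb counts in each library (dots) with the mean ± SD of each group of 3; groups run WKY CRS, WKY NS, F344 CRS, F344 NS. Hbb-b1 is at 1.30 to 2.89 in WKY and 4.81 to 5.81 in F344, and the sum of the 3 copies overlaps between strains at 20.2 to 29.3 and 20.4 to 24.9.

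As a share of all globin counts, Hbb-b1 stood at 1.07% to 1.25% in WKY after CRS and 1.33% to 2.21% in WKY with NS, against 4.65% to 4.68% in F344 after CRS and 3.93% to 4.12% in F344 with NS. The exact binomial 95% interval of a single library was 1.03% to 1.13% at the lowest share, in WKY after CRS, and 4.57% to 4.79% at the highest, in F344 after CRS. These intervals cover counting error only.

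No globin gene passed the threshold for a change with restraint in either strain. EdgeR called 0 of the 6 members in WKY and 0 in F344, with 0% of 2781 genes called in either strain, and no member had an unadjusted p under 0.05. DESeq2 called 0 members in both strains too. In simulated data the edgeR procedure recovered 17.3% of 2-fold changes in the WKY restraint comparison and 18.3% in the F344 one, so most changes of that size would be missed. In F344 no member's CRS libraries stood wholly apart from its NS libraries, against 6.22% of tested genes higher and 5.68% lower, and in WKY none stood wholly below, against 5.18%. With NS, no member stood wholly higher in WKY than in F344, against 7.7%. Over all genes, 161 in WKY and 130 in F344 had an unadjusted p under 0.05. Averaged over both strains 0 members were called, against 0.036% of all genes, and the test of a difference in response between strains called 0 members and 0% of genes, with 106 genes at an unadjusted p under 0.05.

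Hbb had 34508, 37136 and 36942 CPM in WKY after CRS and 25365, 24870 and 19820 CPM in WKY with NS. The libraries after CRS all lay above those with NS, as 4.93% of the tested genes did in that direction. The difference was log2 0.63 (SE 0.37, edgeR adjusted p = 0.960), with a 95% interval of -0.13 to 1.39. In F344, Hbb had 23920, 39474 and 32575 CPM after CRS and 19499, 33060 and 33222 CPM with NS. Those groups overlapped, at log2 0.16 (SE 0.37, adjusted p = 1.00, 95% interval -0.59 to 0.92). The difference between the strains in the Hbb response was log2 0.47 (SE 0.53, edgeR adjusted p = 0.993). Between strains Hbb differed by log2 0.18 after CRS (SE 0.37, adjusted p = 0.910) and by -0.29 with NS (SE 0.37, adjusted p = 0.892), and neither passed.

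Hbb-b1 itself differed after CRS by log2 0.020 in WKY (SE 0.33, edgeR adjusted p = 0.992, 95% interval -0.65 to 0.69) and by 0.37 in F344 (SE 0.33, adjusted p = 0.996, 95% interval -0.30 to 1.05). The difference between those responses was log2 -0.35 (SE 0.47, adjusted p = 0.993).

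LOC689064 had 2809, 3064 and 3545 CPM in WKY after CRS and 1652, 2712 and 2314 CPM in F344 after CRS. The WKY libraries all lay above the F344 ones, as 9.64% of the tested genes did in that direction, but the difference did not pass (log2 0.50, SE 0.34, edgeR adjusted p = 0.634). With NS it had 2835, 2346 and 1993 CPM in WKY and 1227, 2658 and 2273 CPM in F344, which overlapped (log2 0.22, SE 0.34, adjusted p = 0.921). LOC100134871 had 3702, 4010 and 4570 CPM in WKY after CRS, and 3856, 3116 and 2320 CPM in WKY with NS. It had 2268, 3984 and 3583 CPM in F344 after CRS and 1782, 3861 and 3284 CPM in F344 with NS. Its groups overlapped in all 4 pairwise comparisons, with log2 differences between strains of 0.32 after CRS and 0.058 with NS, and after CRS of 0.40 in WKY and 0.14 in F344. LOC689064 differed after CRS by 0.39 in WKY and 0.12 in F344. None of these passed, with edgeR adjusted p from 0.804 to 1.00.

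The alpha copy LOC287167 spread widely in 3 of the 4 groups, with F344 after CRS the exception. It had 236, 564 and 198 CPM in WKY after CRS, 319, 392 and 162 CPM in WKY with NS, 234, 283 and 272 CPM in F344 after CRS and 139, 470 and 281 CPM in F344 with NS. All groups overlapped. Its log2 differences were 0.34 between strains after CRS, -0.025 with NS, and after CRS 0.19 in WKY and -0.17 in F344, with edgeR adjusted p from 0.813 to 1.00. The SE of each was 0.38.

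Hba1, the other alpha row, rested on 3 to 68 counts per library. It had 0.764, 5.23 and 9.53 CPM in WKY after CRS, 6.22, 3.28 and 1.16 CPM in WKY with NS, 3.84, 15.7 and 13.8 CPM in F344 after CRS, and 5.52, 6.09 and 17.2 CPM in F344 with NS. Groups overlapped in all pairwise comparisons. Averaged over treatments Hba1 was 2.16-fold lower in WKY (log2 -1.11, SE 0.40) without passing (edgeR adjusted p = 0.133). It passed by limma-voom with sample weights (log2 -1.60, adjusted p = 0.0451), without F344 CRS replicate 1 (log2 -1.33, edgeR adjusted p = 0.0441) and without WKY CRS replicate 3 (log2 -1.57, edgeR adjusted p = 0.0149). The strain difference was log2 -1.12 after CRS (SE 0.52, edgeR adjusted p = 0.402) and -1.11 with NS (SE 0.60, adjusted p = 0.592). After CRS it differed by log2 0.38 in WKY (SE 0.59, adjusted p = 0.975) and 0.40 in F344 (SE 0.54, adjusted p = 1.00).

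**Figure D3:**
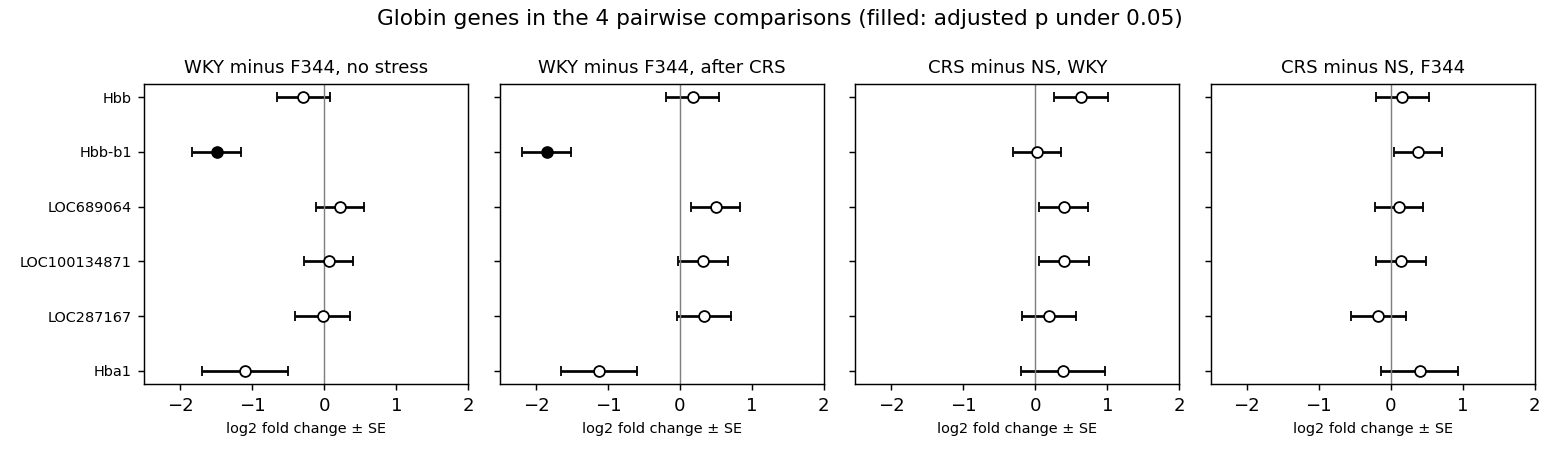
Log2 fold change with SE bars for the 6 genes in 4 comparisons: WKY minus F344 with NS, WKY minus F344 after CRS, CRS minus NS in WKY and CRS minus NS in F344. Filled circles, edgeR adjusted p under 0.05, occur for Hbb-b1 alone, at -1.50 with NS and -1.85 after CRS in the strain comparisons.

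Of 17 further globin family symbols looked up, 8 were in the files and 0 passed the filter. They included Hbb-bs and Hba-a3, the RefSeq names of the members LOC689064 and LOC287167. Hba-a1 and Hba-a2, the 2 genes that share the older name Hba1, were included too. A symbol missing from the files therefore does not mean that its gene went uncounted. Hba2 had 21 counts over the 12 libraries and the embryonic gene Hbe1 had 15. Cygb (cytoglobin), Hbg1, Hbz, Mb (myoglobin) and Ngb (neuroglobin) had 4 to 6 each and Hbe2 had 1.

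The 6 genes were then summed in each library, as a description without a test. On the TMM scale the sum was 41703, 45348 and 45789 CPM in WKY after CRS and 33113, 31185 and 24624 CPM in WKY with NS. It was 29453, 48751 and 40649 CPM in F344 after CRS and 23619, 41777 and 40676 CPM in F344 with NS. The WKY libraries after CRS all lay above those with NS (log2 difference 0.59), and the F344 groups overlapped (log2 difference 0.18). With the 3 dominant features set aside, globin made up 51.3%, 44.7% and 47.6% in WKY after CRS and 41.3%, 42.9% and 37.3% in WKY with NS. The shares were 42.3%, 50.7% and 47.7% in F344 after CRS and 38.8%, 35.1% and 39.2% in F344 with NS. On this scale CRS and NS did not overlap in either strain, at log2 0.24 in WKY and 0.31 in F344. As a share of all gene counts, and as a share of all counted reads, the WKY groups overlapped and the F344 groups did not. Among single tested genes on the TMM scale, 4.93% lay wholly higher after CRS in WKY and 6.22% in F344. No such share was computed on the other scales, and leave-outs of the sum were run on the TMM scale only.

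With all libraries, the CRS difference of the sum was positive on all 4 scales in both strains. On the TMM scale the F344 difference was -0.088 without F344 NS replicate 1, 0.015 without F344 CRS replicate 2, 0.38 without F344 CRS replicate 1 and 0.32 and 0.30 without F344 NS replicates 2 and 3, while the WKY difference stayed between 0.46 and 0.67 over its leave-outs. The strain difference changed sign with the scale: with NS it was log2 -0.22 on the TMM scale and 0.26 as a share of all gene counts, and after CRS it was 0.19 and -0.20. Platelet markers summed to 31.8 to 47.1 CPM in WKY after CRS and 11.2 to 33.1 CPM in WKY with NS, and to 26.0 to 29.4 CPM in F344 after CRS and 15.7 to 20.1 CPM in F344 with NS. Ambiguous reads were 80.4% ± 1.86 of all counted reads in WKY after CRS and 82.4% ± 1.55 in WKY with NS, and 81.9% ± 1.47 in F344 after CRS and 82.1% ± 0.963 in F344 with NS (SD, n = 3 each). Gene counts outside the 3 features were 281591 ± 44301 in WKY after CRS and 246647 ± 91283 in WKY with NS, and 348976 ± 69001 in F344 after CRS and 168953 ± 68825 in F344 with NS. Their part in the globin values was not tested.

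**Figure D4:**
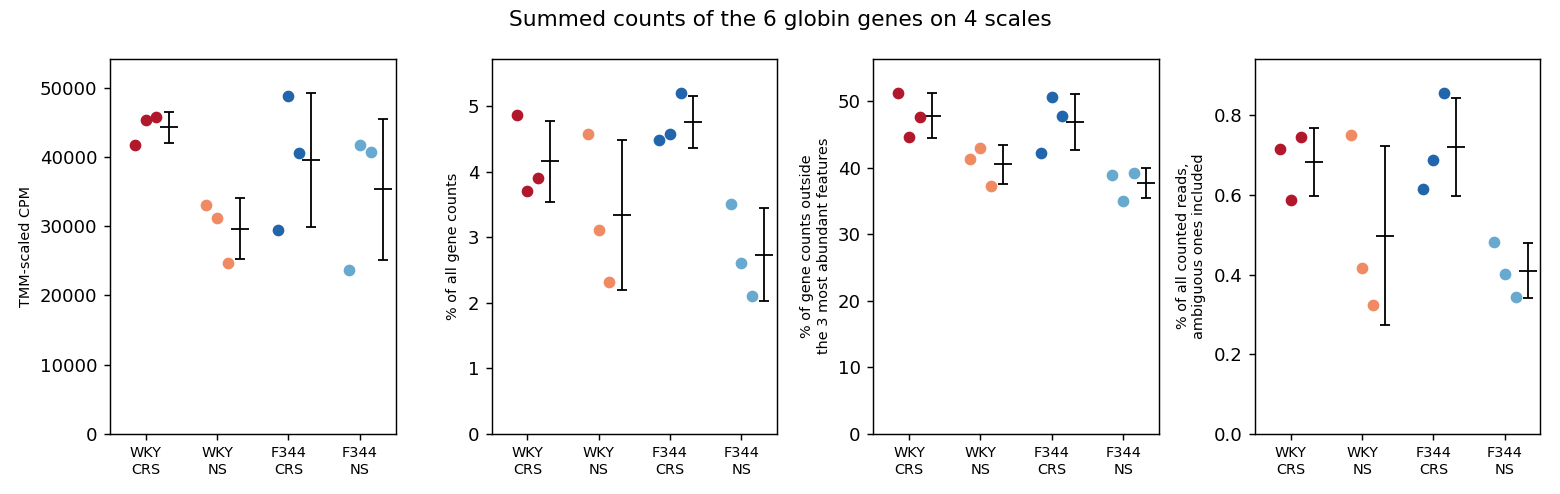
Summed counts of the 6 genes on 4 scales: TMM-scaled CPM, percent of all gene counts, percent of gene counts outside the 3 most abundant features, and percent of all counted reads with ambiguous ones; dots are libraries, bars the mean ± SD, groups WKY CRS, WKY NS, F344 CRS, F344 NS. Outside the 3 features the libraries after CRS reach 42.3% to 51.3% and those with NS 35.1% to 42.9%.

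Genes of red cell membrane and maturation were examined beside globin, to see what else of that cell differed. Of 15 tested, 0 were called after CRS in WKY or F344, by edgeR or by DESeq2. Their median log2 difference after CRS was 0.18 in WKY and -0.05 in F344, against 0.02 and 0.01 over all tested genes. In the same order, 10 and 5 of the 15 were positive, against 51.2% and 51.0% of all tested genes. The WKY median ran from -0.13 to 0.30 over leave-outs and from -0.06 to 0.20 over the other alternatives. The F344 median was 0.63 without both shallow F344 NS libraries and 0.60 with library totals only, a scaling that moves the median of all tested genes to 0.50 there. Slc4a1, the band 3 anion exchanger, had 259 ± 79.6 CPM in WKY after CRS, 240 ± 16.3 in WKY with NS, 217 ± 28.6 in F344 after CRS and 300.5 ± 147 in F344 with NS. Bnip3l, which clears mitochondria from reticulocytes, had 131 ± 10.6, 116 ± 4.57, 115 ± 10.6 and 155 ± 55.9 CPM in the same order of groups. Ahsp, the chaperone of free alpha chains, had 16.1 ± 5.44, 13.6 ± 1.40, 16.0 ± 1.05 and 16.2 ± 10.2 CPM. The membrane skeleton genes Add2 and Dmtn in WKY and Tmod1 in F344 had edgeR adjusted p from 0.975 to 0.996 after CRS.

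Between strains, 1 red cell gene of 15 was called after CRS, 6.67% against 1.29% of all tested genes. Rhd, a Rh blood group protein gene, was lower in WKY, at 5.01 ± 0.814 CPM in WKY and 13.7 ± 3.83 CPM in F344 (log2 -1.43, SE 0.36, edgeR adjusted p = 0.0263). With NS it had 5.44 ± 0.680 CPM in WKY and 13.9 ± 5.58 CPM in F344 and did not pass (log2 -1.25, SE 0.38, adjusted p = 0.131). Averaged over both treatments Rhd was lower in WKY (log2 -1.34, SE 0.26, edgeR adjusted p = 0.00108). That call held in each of the 12 leave-outs and was lost with library totals only (log2 -1.29, adjusted p = 0.0692) and without both shallow F344 NS libraries (log2 -0.92, adjusted p = 0.125). With NS, Rhd passed without F344 NS replicate 1 (log2 -1.63, edgeR adjusted p = 0.0235), and its difference was -0.40 without both shallow libraries. The call after CRS was lost by the DESeq2 test, with library totals only, and without F344 CRS replicate 1 or 2 or WKY CRS replicate 1 or 2. Add2 after CRS and Trim58 with NS had the smallest p-values among genes with higher estimates in WKY, at edgeR adjusted p of 0.395 and 0.819.

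Heme, the iron-bearing group that globin binds, is made in mitochondria. Of 10 tested heme synthesis and mitochondrial iron genes, 0 were called in any of the 4 pairwise comparisons. Their median log2 difference after CRS was 0.24 in WKY, with 9 of 10 positive, and 0.08 in F344, with 5 of 10 positive. Of all tested genes, 51.2% were positive in WKY and 51.0% in F344. The WKY median ran from 0.058 to 0.39 over leave-outs and from 0.005 to 0.26 over the other alternatives. The F344 median was 0.68 without both shallow F344 NS libraries, 0.67 with library totals only and 0.63 with no low count filter. Alas2, the red cell enzyme of the first step, had 590 ± 70.0 CPM in WKY after CRS, 492 ± 60.8 in WKY with NS, 658 ± 98.3 in F344 after CRS and 692 ± 226 in F344 with NS. Slc25a37 (mitoferrin, which imports iron into mitochondria) had 38.8 ± 3.18, 35.5 ± 12.3, 20.6 ± 2.87 and 30.5 ± 12.1 CPM in that order, with an edgeR adjusted p of 0.187 between strains after CRS. Fech, which inserts the iron, had the smallest p among those lower in WKY after CRS, at an adjusted p of 0.867. Iscu, a scaffold for iron-sulfur clusters, had 6.62 to 7.89 CPM in WKY after CRS and 2.32 to 2.62 CPM in WKY with NS without passing (edgeR adjusted p = 0.376). It had 2.49 ± 0.154 CPM in WKY with NS and 5.88 ± 1.97 CPM in F344 with NS (adjusted p = 0.349). After CRS, the edgeR adjusted p was 0.918 for Abcb10 in F344 and 0.998 for Slc25a38 in WKY.

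Of 10 tested regulators of globin genes, 0 were called in any pairwise comparison. The median log2 difference after CRS was 0.18 in WKY and -0.02 in F344, where it was 0.47 with library totals only and 0.26 with no low count filter. In WKY it ran from 0.03 to 0.35 over leave-outs and from -0.08 to 0.21 over the other alternatives. Between strains it was -0.14 after CRS and -0.18 with NS, against -0.53 and 0.12 with library totals only. Gata1 had 6.04 ± 1.28 CPM in WKY after CRS, 5.06 ± 1.45 in WKY with NS, 8.34 ± 2.72 in F344 after CRS and 6.70 ± 2.70 in F344 with NS. Klf1, whose protein binds CACCC boxes of beta globin genes, had 9.64 ± 6.41, 12.1 ± 0.431, 12.1 ± 1.20 and 12.9 ± 3.65 CPM in that order. Tal1 had 7.30 ± 3.03 CPM in F344 after CRS and 3.04 ± 1.07 CPM in F344 with NS (edgeR adjusted p = 0.918), and Nfe2 had 21.6 ± 7.46 CPM in WKY after CRS and 14.6 ± 2.75 CPM in WKY with NS (adjusted p = 0.959). In the other comparisons and directions the smallest p-values were those of Ldb1, Klf1, Tal1, Lmo2 and Eif2ak1, the heme-regulated kinase that slows translation, with edgeR adjusted p from 0.525 to 0.996.

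Genes that bind, break down or store what haemoglobin releases gave 0 calls among 5 tested. The ferritin heavy chain gene Fth1 had 187 ± 43.8 CPM in WKY after CRS, 132 ± 47.4 in WKY with NS, 251.5 ± 32.6 in F344 after CRS and 152 ± 16.4 in F344 with NS, with edgeR adjusted p after CRS of 0.960 in WKY and 0.918 in F344. The light chain gene Ftl1 had 241 ± 201, 167 ± 58.0, 259 ± 35.1 and 234 ± 33.6 CPM in that order. Cd163, the haemoglobin scavenger receptor of macrophages, had the smallest p among genes lower after CRS in both strains. Among genes higher in WKY, the biliverdin reductases Blvrb after CRS and Blvra with NS had the smallest p. Among genes lower in WKY, these were Fth1 after CRS and Ftl1 with NS. The edgeR adjusted p of these genes ran from 0.535 to 0.987. The median log2 differences of the 5 tested genes after CRS were 0.42 in WKY and 0.15 in F344. The WKY median was -0.41 without WKY CRS replicate 2, and the F344 median was 0.75 with library totals only.

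The globin copies varied together from library to library. After group means were removed, log2 levels of the beta genes correlated with each other at Pearson's r of 0.859 to 0.986 over the 12 libraries, highest for LOC689064 with LOC100134871. LOC287167 followed the beta genes at 0.608 to 0.671, and Hba1 followed them at 0.614 to 0.698. LOC287167 and Hba1 correlated with each other at 0.298. Likeness to the globin sum was ranked over 1085 other genes with at least 5 CPM on average, leaving out symbols that start with LOC or RGD. Among these 1085 the most alike in this measure was Abhd4, a lipid-metabolising hydrolase (r = 0.916, Spearman's rho = 0.804). Tpt1, encoding the translationally controlled tumour protein (0.906 and 0.804), and Alas2 (0.902 and 0.776) came next. The translation initiation factor gene Eif1 (0.879 and 0.734) and the heme-sensing repressor gene Bach1 (0.859 and 0.741) followed. Bnip3l ranked 19, Ahsp 45, Slc4a1 148 and Slc25a37 191. These values describe 12 libraries that share scaling and depth, and carry no p.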

How the data were processed

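The 12 whole blood RNA libraries, in 4 groups of 3 set by the strain and treatment labels, were prepared with standard Ion Proton protocols, per the labels' protocols. The deposited files hold whole-number raw read counts per gene. Tools listed, per the submitters' processing notes, are TopHat2 2.1.0, Cufflinks 2.2.1 and cutadapt 1.14, with the build rn6. Which program counted reads, and with what strandedness, is not given in the sources used here. The 5 rows that name no gene, 80.9% to 86.6% of all counts, stayed out of library sizes and tests.

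Counts were tested with edgeR 4.0.16 (R 4.3.3): TMM scaling, filterByExpr with a minimum count of 10, quasi-likelihood tests on 1 fit of 4 group means over 12 libraries, and Benjamini-Hochberg adjustment over 2781 genes with a threshold of 0.05. SEs were derived from the fold change and F statistic. CPM are TMM-scaled, with 1 count worth 0.202 to 1.14 CPM. The procedure was tested on simulated data with 200 genes changed in 1 pairwise comparison at a time. It called 17.3% to 23.3% of 2-fold changes and 72.7% to 79.7% of 4-fold changes in the right direction. Of its calls 3.28% to 4.90% were false. A gene that was not called may therefore still differ 2-fold. Within groups, chi-square per degree of freedom between libraries was 5.03 to 169, so no library was taken for a duplicate.

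The members and gene lists were chosen with earlier results of these data known. Named genes were the 6 members, Alas2, Slc4a1, Slc25a37, Bnip3l and Ahsp. The member of each list with the smallest p per direction in the pairwise comparisons was named too. So were the 5 genes most like the globin sum within groups, among symbols not starting with LOC or RGD. Gata1, Klf1 and the scarce globin family genes were named after their values were seen. Some genes the rule picked are not reported here. Alternatives included DESeq2 1.42.0, limma-voom (limma 3.58.1), other scalings and filters, and leaving out each library; those for Rhd and for the Hbb-b1 share were added after the data were seen. Sequences and gene names came from RefSeq tables of GRCr8, another build than rn6, which hold 14821 of the 17337 symbols.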

Additional observations from a re-analysis of the deposited data

Results flagged for a closer look

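The share of globin counts assigned to Hbb-b1 moved in opposite directions with restraint in the 2 strains. It was 0.513 percentage points lower after CRS than with NS in WKY, a signed difference of -0.513 points, at 1.16% ± 0.0907 after CRS and 1.67% ± 0.475 with NS (SD, n = 3 each). In F344 it was 0.619 points higher after CRS, at 4.67% ± 0.0133 after CRS and 4.05% ± 0.104 with NS. All 3 libraries after CRS lay below all 3 with NS in WKY and above them in F344. That separation is the rule by which this result was picked, so it gives no support of its own. The rule searched every member, in CPM and as a share of globin counts, for full separation in opposite directions. Without WKY NS replicate 1, the WKY library with the highest share, the WKY difference was -0.242 points, while over the other leave-outs, run after the data were seen, it was -0.682 to -0.472 points and in F344 0.560 to 0.657 points. A share of globin counts has no counterpart over all genes, so no background is given for the separation. A share also depends on the other members. In WKY, mean Hbb-b1 was 513 CPM after CRS and 506 CPM with NS, while mean Hbb was 36195 and 23351 CPM. In F344, mean Hbb-b1 was 1849 and 1429 CPM, and mean Hbb 31990 and 28594 CPM. The difference in this share between strains was not tested, and the test on Hbb-b1 levels for a difference in response did not pass (log2 -0.35, edgeR adjusted p = 0.993).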

How the results depend on the processing

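The lower Hbb-b1 level in WKY kept its direction under every alternative run, with log2 differences of -2.22 to -1.67 after CRS (edgeR, DESeq2 or limma adjusted p up to 0.0224) and -1.85 to -0.88 with NS. The count of called members with NS was 1 and fell to 0 with library totals only (log2 -0.90, adjusted p = 0.571), with no low count filter (log2 -1.17, adjusted p = 0.0594), with only the groups compared (log2 -1.53, adjusted p = 0.0802) and without both shallow F344 libraries, and ranged from 0 to 1 over leave-outs. For strain averaged over treatments it was 2 by limma-voom and 1 to 2 over leave-outs, the added gene being Hba1. Between strains with NS, the list medians with all libraries were -0.079 for red cell genes, -0.048 for heme synthesis and -0.064 for heme breakdown. Without both shallow F344 libraries, where 1 F344 NS library remained, they were 0.76, 0.43 and 0.72 in that order. Calls among all genes were 5 to 45 with NS and 18 to 46 after CRS over leave-outs. With library totals only they were 8 and 13.

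Members that did not pass changed direction as follows. With library totals only, CRS differences were 0.59 for LOC287167 in F344, and -0.32 for Hbb-b1 and -0.13 for LOC287167 in WKY; strain differences were 0.24 for Hbb and 0.61 for LOC287167 with NS, and -0.18 for Hbb, -0.038 for LOC100134871 and -0.10 for LOC287167 after CRS; the Hbb difference in response was -0.41. This scaling moves the median of all genes by 0.31 with NS and -0.39 after CRS between strains, and by -0.22 in WKY and 0.50 in F344 after CRS; relative to that median Hbb-b1 was -1.22 with NS and -1.82 after CRS in WKY. With no filter, LOC287167 was 0.27 after CRS in F344 and 0.31 between strains with NS, and Hbb 0.025 there. Without both shallow F344 libraries these were 0.98, 1.12 and 0.31, and the Hbb difference in response -0.13. By limma-voom, Hba1 was -0.34 after CRS in WKY and -0.093 in F344, and LOC100134871 -0.072 between strains with NS. With a minimum count of 20, Hbb-b1 was -0.018 after CRS in WKY. The cause was not tested.

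Over leave-outs the CRS differences in F344 ran from -0.030 to 0.35 for Hbb, -0.13 to 0.39 for LOC689064, -0.10 to 0.41 for LOC100134871 and -0.50 to 0.38 for LOC287167. In WKY they ran from -0.21 to 0.41 for Hbb-b1, -0.42 to 0.50 for LOC287167 and -0.54 to 1.13 for Hba1. Between strains with NS they ran from -0.027 to 0.49 for LOC689064, -0.19 to 0.33 for LOC100134871 and -0.35 to 0.52 for LOC287167, which ran from -0.28 to 0.61 after CRS; the Hbb-b1 difference in response ran from -0.60 to 0.021. Over leave-outs the summed globin log2 difference ran from -0.088 to 0.38 in F344 and 0.46 to 0.67 in WKY after CRS, and between strains from -0.49 to -0.076 with NS and -0.0089 to 0.35 after CRS. It moved to 0.83 in F344 and 0.36 in WKY after CRS, and to 0.26 with NS and -0.20 after CRS between strains, as a share of gene counts; to 0.82 in F344 and 0.20 between strains with NS as a share of all rows; and to 0.24 in WKY outside the 3 most abundant features.

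Replicate numbers in the titles recur across groups. Of 18 same-numbered pairs 4 deviated together with r over 0.1 (median 0.033), against 2 of 36 pairs with different numbers (median -0.013), and 9 of 12 libraries correlated best with their own number, which is a hint of pairing from the data. Since not every pair passed 0.1 and no label gives the number a meaning, the numbers were not taken to pair libraries. A fit with the replicate block called the same number of members in every comparison. It turned Hbb-b1 after CRS in WKY to -0.0019 and LOC287167 between strains with NS to 0.045, and called 25 genes between strains with NS. Depth limits Hba1, at 3 to 68 counts per library.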
